A study of Mus musculus with 18 samples.

Results

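The 3 phosphofructokinase genes Pfkl, Pfkp and Pfkm and the 3 regulator genes Pfkfb2, Pfkfb3 and Pfkfb4 were followed through polyA RNA sequencing of mouse alveolar macrophages, which reside in the airspaces of the lung. They were taken by gene symbol from the deposited table, which makes 6 of its 32789 genes, and all 6 were among the 12900 genes that passed the filter on low counts. The 6 groups held 3 libraries each, 18 libraries in all. Vhl-Hif1 KO is labelled as a CD11c-Cre knockout of Vhl and Hif1, Vhl-Hif2 KO as a CD11c-Cre knockout of Vhl and Hif2 (HIF-2α, gene symbol Epas1), and Vhl-Hif1-Hif2 KO as a CD11c-Cre knockout of all 3 genes. Each knockout has its own control group, Vhl-Hif1 control, Vhl-Hif2 control and Vhl-Hif1-Hif2 control, whose labels name homozygous floxed alleles of the same genes and do not say whether Cre was present or absent. All 3 knockouts therefore share the loss of Vhl and differ in which HIF alpha subunit they lack as well. CD11c-Cre acts in cells that express CD11c, and not in macrophages alone. The cells came from bronchoalveolar lavage and were enriched on magnetic beads that bind CD11c. Age and sex of the mice are not in the labels. The labels do not say that the replicates of a group are separate animals, so the p-values measure the spread between these libraries, which may be technical.

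Phosphofructokinase adds the second phosphate to the glycolytic sugar and is the main committed, regulated step of glycolysis. Mammals have a liver-type (Pfkl), a platelet-type (Pfkp) and a muscle-type (Pfkm) subunit, which assemble into tetramers. The PFKFB enzymes carry a kinase and a phosphatase in a single chain and set the level of a separate fructose bisphosphate that activates phosphofructokinase. PFKFB3 strongly favours the kinase reaction, PFKFB4 has been studied mostly in testis and tumours, and PFKFB2 is the heart isoform. The Vhl protein targets HIF alpha subunits (HIF, hypoxia-inducible factor) for destruction when oxygen is present, and HIF-1α is known to activate many glycolytic genes.

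The promoters of the members called in a comparison, and that of Pfkfb4, the gene with the narrowest span over the libraries, are shown first because ACGTG and GCGTG are the core letters of the known HIF binding motif. They are RefSeq windows on GRCm38.p6, all on the strand of the gene from 5′ to 3′, from 250 bases before to 50 bases after an annotated start. Capitals mark ACGTG or GCGTG on either strand, so that the opposite strand reads CACGT or CACGC, and overlapping matches merge into one capital run.
Pfkl, chr10:78009758-78010057, minus strand: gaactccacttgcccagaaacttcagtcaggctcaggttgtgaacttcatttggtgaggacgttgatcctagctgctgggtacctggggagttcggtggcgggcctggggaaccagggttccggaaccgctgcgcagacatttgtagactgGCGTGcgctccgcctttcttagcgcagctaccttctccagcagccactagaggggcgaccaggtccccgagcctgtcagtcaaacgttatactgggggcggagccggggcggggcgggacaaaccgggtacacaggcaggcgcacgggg
Pfkp, chr13:6648722-6649021, minus strand: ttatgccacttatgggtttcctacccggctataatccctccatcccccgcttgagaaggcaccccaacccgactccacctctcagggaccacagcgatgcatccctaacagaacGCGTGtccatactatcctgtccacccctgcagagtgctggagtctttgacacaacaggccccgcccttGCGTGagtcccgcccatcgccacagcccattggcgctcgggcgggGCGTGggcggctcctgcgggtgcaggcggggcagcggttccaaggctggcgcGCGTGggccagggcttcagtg
Pfkfb3, window 1, chr2:11502041-11502340, minus strand: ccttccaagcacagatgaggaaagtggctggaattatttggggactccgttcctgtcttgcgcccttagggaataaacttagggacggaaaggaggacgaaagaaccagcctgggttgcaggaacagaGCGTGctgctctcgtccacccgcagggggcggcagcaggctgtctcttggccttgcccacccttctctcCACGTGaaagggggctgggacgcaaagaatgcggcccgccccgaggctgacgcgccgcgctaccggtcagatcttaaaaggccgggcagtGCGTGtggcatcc
Pfkfb3, window 2, chr2:11553880-11554179, minus strand: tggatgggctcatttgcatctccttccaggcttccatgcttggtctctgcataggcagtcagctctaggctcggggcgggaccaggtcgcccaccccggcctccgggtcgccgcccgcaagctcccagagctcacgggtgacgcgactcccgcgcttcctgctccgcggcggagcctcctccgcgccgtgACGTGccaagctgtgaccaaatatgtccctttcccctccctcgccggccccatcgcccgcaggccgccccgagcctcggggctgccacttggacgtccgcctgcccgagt
Pfkfb4, chr9:108991652-108991951, plus strand: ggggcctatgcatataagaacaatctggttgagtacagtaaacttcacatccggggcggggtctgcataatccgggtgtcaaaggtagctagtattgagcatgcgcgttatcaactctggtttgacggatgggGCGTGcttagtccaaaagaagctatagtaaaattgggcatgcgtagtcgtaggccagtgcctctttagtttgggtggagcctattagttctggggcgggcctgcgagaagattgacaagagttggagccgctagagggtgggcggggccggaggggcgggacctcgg
The Pfkl window held 1 GCGTG, which starts at position -99 relative to the annotated start. The Pfkp window held 4 GCGTG, at -136, -68, -23 and 30. Of the 2 Pfkfb3 windows, the first held a CACGTG, which reads as ACGTG on both strands, at -53, and GCGTG at -122 and 38, and the second held 1 ACGTG at -60. The Pfkfb4 window held 1 GCGTG at -117. Pfkfb2 and Pfkm, which were not called in any cross, held such letters too. Of the 3 Pfkfb2 windows, the second held a CACGTG at -22 with GCGTG at -72 and -44, the first held 1 ACGTG at -172 and the third 1 GCGTG at -68. Of the 4 Pfkm windows, the first held a CACGTG at -136 and an ACGTG at 17, the second an ACGTG at -244 and a GCGTG at -149, the third a GCGTG at -234, and the last none. The presence of a match did not separate the called genes from the others. All 6 members matched the RefSeq table and each had at least 1 match in at least 1 window, against 46.7% of the 27025 genes in that table and 43.8% of its 32851 windows of 300 bases. These genes were not matched to the members in number of windows or in expression, so the shares cannot show an enrichment. A match describes the letters in a window and is neither a measured binding site nor a cause of a change.

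Levels are given as normalised counts (CPM, counts scaled to the library size), with ± SD over n = 3 libraries, and log2 fold changes are KO over control with ± SE. Calls needed an adjusted p (Benjamini-Hochberg) under 0.05 in edgeR's quasi-likelihood test across all 12900 genes. Depth ran from 19200000 to 34000000 counts per library (rounded), with 30800000 to 34000000 in Vhl-Hif2 KO and 19200000 to 25800000 in Vhl-Hif2 control. Vhl RNA fell in all 3 knockouts, to 2.88 CPM in Vhl-Hif1 KO against 16.9 CPM in Vhl-Hif1 control, to 2.25 CPM in Vhl-Hif2 KO against 18.7 CPM in Vhl-Hif2 control, and to 2.20 CPM in Vhl-Hif1-Hif2 KO against 12.9 CPM in Vhl-Hif1-Hif2 control (edgeR adjusted p = 6.29e-08, 6.04e-10 and 9.75e-08). Hif1a RNA fell in the libraries labelled Vhl-Hif2 KO (66.3 CPM, against 217 CPM in Vhl-Hif2 control, edgeR adjusted p = 3.51e-06) and was not called in the other knockouts, and Epas1 RNA rose in the libraries labelled Vhl-Hif2 KO (log2 fold change 0.97, edgeR adjusted p = 0.00172). A count per gene also takes in exons that a deletion leaves, so these 2 counts are no check of the Hif1a and Epas1 deletions, and group names follow the labels. Of the 9 control libraries 3 stood apart from their group in other genes. Egln3, a HIF prolyl hydroxylase, was at 32.5 CPM in Vhl-Hif1 control 3, where its other controls had 0.464 and 0.617 CPM, and at 11.5 CPM in Vhl-Hif2 control 1, where the others had 2.47 and 0.465 CPM. Vhl-Hif1-Hif2 control 2 lay farthest out on the second principal component, and its Hif1a level was 137 CPM, where the others had 251 and 238 CPM. Each of these 3 libraries also had the highest Pfkl of its group. Without them in turn the Pfkl log2 fold change was 1.03 in Vhl-Hif1 KO (edgeR adjusted p = 0.000707) and 3.53 in Vhl-Hif2 KO (edgeR adjusted p = 2.14e-10), both still called. Leaving out the 3 together, an alternative chosen after seeing the data, gave 1.02 (edgeR adjusted p = 8.65e-08) and 3.53 (edgeR adjusted p = 1.91e-14), and it added a call of Pfkp in Vhl-Hif1 KO.

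Pfkl, Pfkp and Pfkfb3 RNA rose in Vhl-Hif2 KO, Pfkl rose in Vhl-Hif1 KO, and none of them was called in Vhl-Hif1-Hif2 KO. In Vhl-Hif1 KO 1 of 6 members was called higher and 0 lower, where 3.67% of all tested genes were called in either direction and 2.25% were called higher. The count there was 2 of 6, Pfkl and Pfkp, without the 3 control libraries that stood apart. In Vhl-Hif2 KO 3 of 6 were called higher and 0 lower, where 14.7% of all tested genes were called and 7.68% were called higher. In Vhl-Hif1-Hif2 KO 0 of 6 were called by edgeR, where 0.0388% of all tested genes were called. There, 3 of 6 members (Pfkl, Pfkfb2 and Pfkfb3) had an unadjusted edgeR p under 0.05, as did 1480 of the 12900 tested genes. DESeq2 also called 0 members in that cross. The median log2 fold change of the 6 members was 0.10 in Vhl-Hif1 KO, 0.90 in Vhl-Hif2 KO and 0.03 in Vhl-Hif1-Hif2 KO, where the medians over all tested genes were -0.00066, 0.0032 and -0.010.

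**Figure D1:**
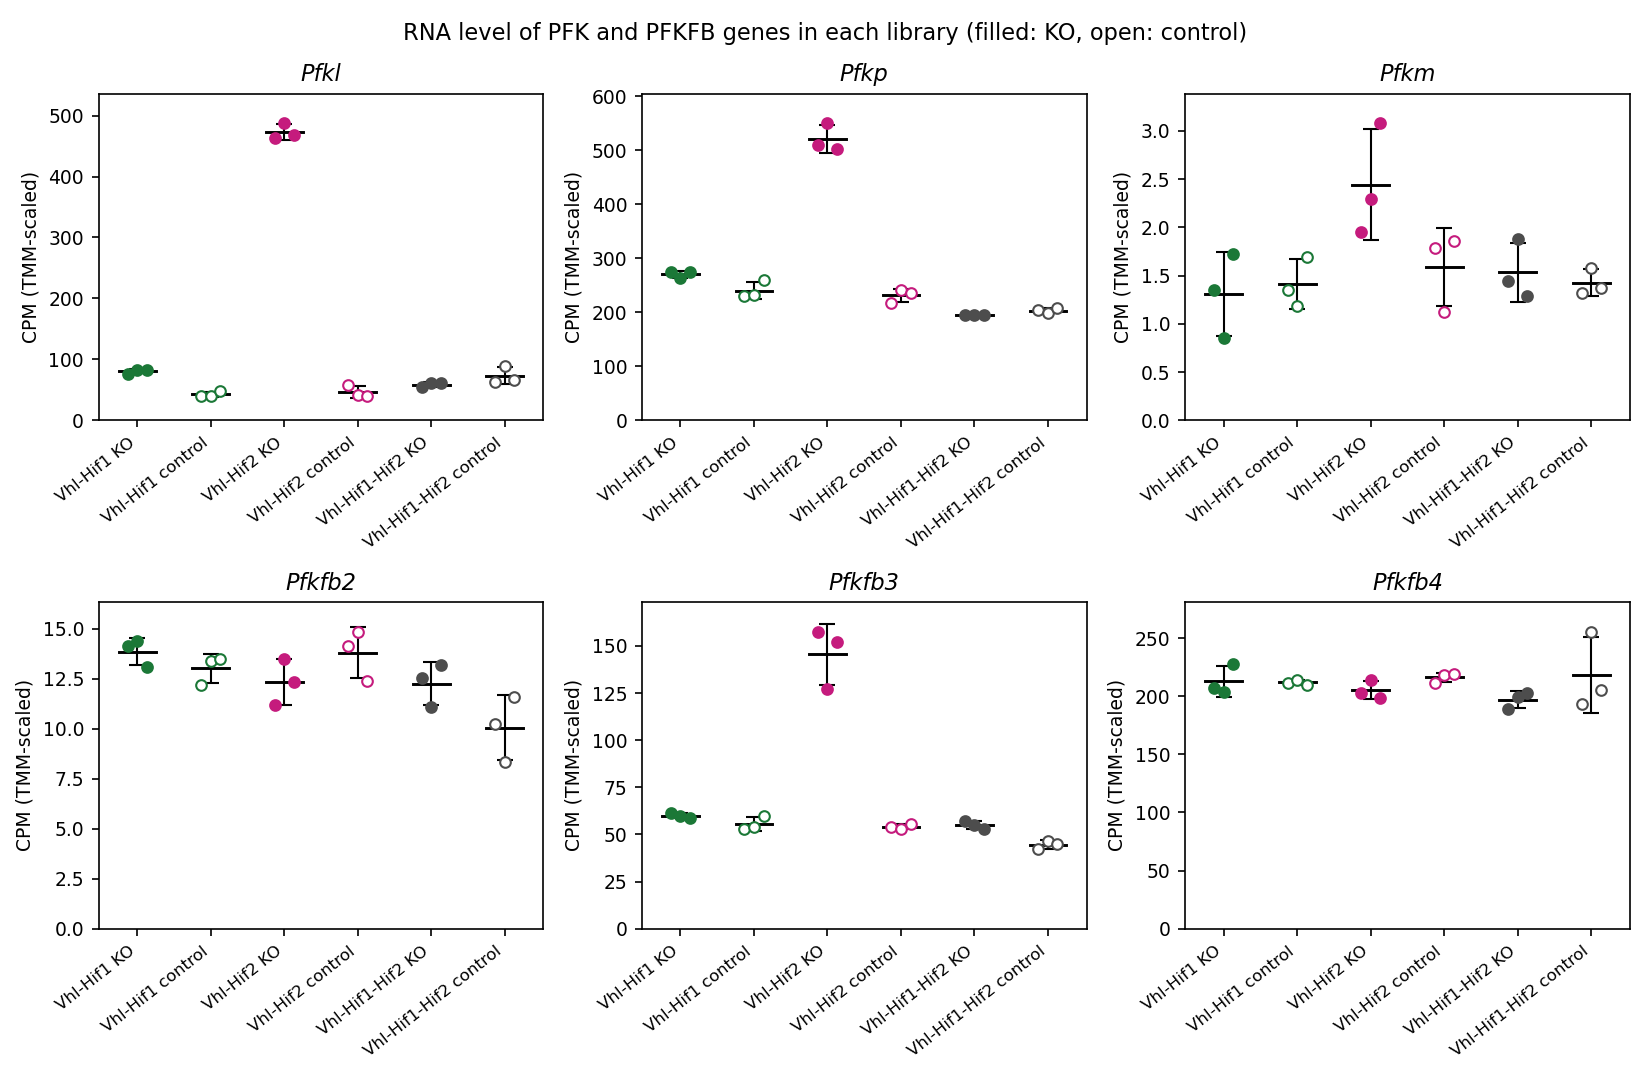
Normalised level (CPM, linear axis from 0 in each panel) of each of the 6 genes in every library, by group, with the mean and SD of the 3 libraries. The Vhl-Hif2 KO libraries stand above all other libraries for Pfkl, Pfkp and Pfkfb3, and the groups overlap for Pfkfb2 and Pfkfb4.

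Pfkl encodes the liver-type subunit (ENSMUSG00000020277, chromosome 10, 77986947 to 78010083, minus strand, GRCm38). In the Vhl-Hif2 cross it was at 464, 488 and 468 CPM in the KO libraries, against 57.8, 42.1 and 40.0 CPM in the control libraries. All KO libraries lay far above all controls. The means were 473 ± 12.7 CPM in Vhl-Hif2 KO and 46.6 ± 9.71 CPM in Vhl-Hif2 control, a log2 fold change of 3.34 ± 0.15 (edgeR adjusted p = 8.39e-11), which is 10.16-fold with a 95% interval of 8.192 to 12.6. In the Vhl-Hif1 cross Pfkl was at 76.6, 82.4 and 82.3 CPM in the KO libraries and at 39.3, 39.8 and 47.9 CPM in the control libraries. The groups again did not overlap, at 80.4 ± 3.32 CPM in Vhl-Hif1 KO and 42.3 ± 4.84 CPM in Vhl-Hif1 control, and the log2 fold change was 0.93 ± 0.14 (edgeR adjusted p = 0.000388, 1.899-fold). Vhl-Hif1-Hif2 KO libraries had 54.3, 60.6 and 61.0 CPM, against 63.6, 88.8 and 65.9 CPM in Vhl-Hif1-Hif2 control libraries. Every one of these KO libraries lay below every control library, but the log2 difference of -0.31 ± 0.14 was not called (edgeR adjusted p = 0.429). Without the highest of these controls, Vhl-Hif1-Hif2 control replicate 2, it was -0.14 (edgeR adjusted p = 1). Among all 12900 tested genes Pfkl had the 71st highest log2 fold change in Vhl-Hif2 KO and the 400th highest in Vhl-Hif1 KO.

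Pfkp, the platelet-type subunit (ENSMUSG00000021196, chromosome 13, 6579768 to 6648777, minus strand), was at 510.2, 550.3 and 502 CPM in Vhl-Hif2 KO libraries, against 217, 240.5 and 236 CPM in Vhl-Hif2 control libraries. The groups did not overlap. The log2 fold change was 1.17 ± 0.07 (edgeR adjusted p = 2.54e-09), which is 2.252-fold, with means of 521 ± 25.8 CPM in Vhl-Hif2 KO and 231 ± 12.5 CPM in Vhl-Hif2 control. In the Vhl-Hif1 cross the KO libraries had 275, 263 and 274 CPM and the control libraries 229, 232 and 259 CPM. These ranges did not overlap either, at a log2 difference of 0.17 ± 0.07 that was not called (edgeR adjusted p = 0.244). Without the 3 control libraries that stood apart it was 0.23 and was called (edgeR adjusted p = 0.0268). The Vhl-Hif1-Hif2 KO libraries had 196, 195 and 194 CPM, against 204, 198 and 207 CPM in their controls, a log2 difference of -0.06 ± 0.07 (edgeR adjusted p = 0.65) with no overlap between the narrow ranges. Pfkp overlaps Pitrm1 on the opposite strand over 748 bases of exon, and the strand setting of the counting is not given in the sources used here, so some reads of the pair may not be told apart.

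Pfkm, the muscle-type subunit (ENSMUSG00000033065, chromosome 15, 98092589 to 98132451, plus strand), was close to the floor of these libraries, with 23 to 103 counts in each. It had 1.95, 2.30 and 3.08 CPM in Vhl-Hif2 KO libraries, against 1.79, 1.12 and 1.86 CPM in Vhl-Hif2 control libraries. The KO libraries lay just above the controls, but the log2 difference of 0.63 ± 0.29 was not called (edgeR adjusted p = 0.17), and its 95% interval ran from 0.03 to 1.23. The means were 1.31 ± 0.433 CPM in Vhl-Hif1 KO and 1.41 ± 0.259 CPM in Vhl-Hif1 control (log2 difference -0.11 ± 0.30, edgeR adjusted p = 0.937). In the remaining cross they were 1.53 ± 0.307 CPM in Vhl-Hif1-Hif2 KO and 1.42 ± 0.139 CPM in Vhl-Hif1-Hif2 control (0.11 ± 0.29, edgeR adjusted p = 0.853). Its SE of 0.29 to 0.30 on the log2 scale, where that of Pfkp was 0.07, limits what could be called for this gene. Pfkm shares 341 bases of exon with Gm26513 on the same strand, so its counts are uncertain in that respect too.

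Pfkfb3, the kinase-dominant regulator (ENSMUSG00000026773, chromosome 2, 11471433 to 11554077, minus strand), was at 158, 127 and 152 CPM in Vhl-Hif2 KO libraries, against 54.2, 52.9 and 55.5 CPM in Vhl-Hif2 control libraries. The lowest KO library lay above the highest control. The log2 fold change was 1.43 ± 0.08 (edgeR adjusted p = 2.44e-09, 2.686-fold), with means of 146 ± 16.3 CPM in Vhl-Hif2 KO and 54.2 ± 1.28 CPM in Vhl-Hif2 control. Vhl-Hif1 KO libraries had 61.4, 59.6 and 58.7 CPM and Vhl-Hif1 control libraries 53.0, 53.7 and 59.8 CPM. Here the ranges overlapped, and the log2 difference of 0.11 ± 0.08 was not called (edgeR adjusted p = 0.682). Vhl-Hif1-Hif2 KO libraries had 56.9, 55.0 and 53.0 CPM, against 42.2, 46.6 and 45.1 CPM in Vhl-Hif1-Hif2 control libraries. These groups did not overlap, and the log2 difference of 0.30 ± 0.08 had an unadjusted edgeR p of 0.00206 and was not called after adjustment (edgeR adjusted p = 0.429). The Vhl-Hif1-Hif2 control libraries were the lowest of all 6 groups for Pfkfb3, while the KO libraries of that cross lay within the range spanned by Vhl-Hif1 control and Vhl-Hif2 control.

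Pfkfb4 (ENSMUSG00000025648, chromosome 9, 108991778 to 109032228, plus strand) was not called in any cross. It was at 203, 214 and 199 CPM in Vhl-Hif2 KO libraries, against 212, 218 and 219 CPM in Vhl-Hif2 control libraries, and the groups overlapped. The log2 difference was -0.07 ± 0.09 (edgeR adjusted p = 0.663), with a 95% interval from -0.26 to 0.11. The Vhl-Hif1 KO libraries had 207, 204 and 228 CPM and the Vhl-Hif1 control libraries 211, 214 and 210 CPM, with overlap and an interval of the log2 difference from -0.18 to 0.19. The Vhl-Hif1-Hif2 KO libraries had 189, 199 and 203 CPM, against 194, 255 and 206 CPM in Vhl-Hif1-Hif2 control libraries, with an interval from -0.33 to 0.04. Without the control library at 255 CPM that log2 difference was -0.02, where it was -0.15 with all libraries. Over all 18 libraries the highest Pfkfb4 level was 1.35 times the lowest, the narrowest span of the 6 genes, against 12.4 times for Pfkl, 3.73 for Pfkfb3, 3.59 for Pfkm, 2.83 for Pfkp and 1.78 for Pfkfb2.

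Pfkfb2 (ENSMUSG00000026409, chromosome 1, 130689182 to 130729253, minus strand) was not called in any cross either. Its level was 12.3 ± 1.13 CPM in Vhl-Hif2 KO and 13.8 ± 1.26 CPM in Vhl-Hif2 control (log2 difference -0.16 ± 0.12, edgeR adjusted p = 0.451). It was 13.9 ± 0.677 CPM in Vhl-Hif1 KO and 13.0 ± 0.723 CPM in Vhl-Hif1 control (0.09 ± 0.12, edgeR adjusted p = 0.856). In the cross of all 3 genes it was at 12.6, 11.1 and 13.2 CPM in KO libraries and at 10.3, 8.36 and 11.6 CPM in control libraries, ranges that overlap, with a log2 difference of 0.28 ± 0.12 (edgeR adjusted p = 0.429). Pfkfb2 shares 1262 bases of exon with Gm29427 on the same strand, so how reads were divided between these gene models can affect its counts. The remaining family gene Pfkfb1, which is best known from liver and is not a member of the set, stayed between 1.41 and 3.0 CPM and was not called in any cross (edgeR adjusted p = 0.566, 0.853 and 0.981 in Vhl-Hif1, Vhl-Hif2 and Vhl-Hif1-Hif2 KO).

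**Figure D2:**
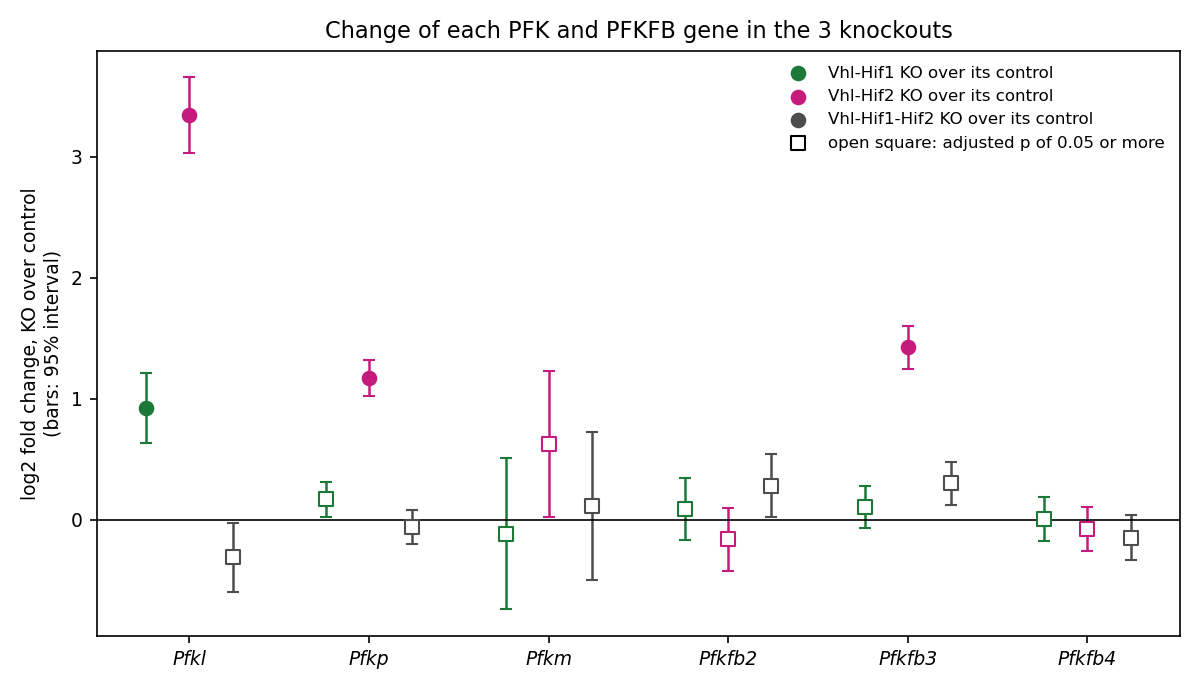
Log2 fold change of each gene, KO over control, in the 3 crosses, with the 95% interval from edgeR. Filled symbols passed an adjusted p under 0.05 and open squares did not: Pfkl, Pfkp and Pfkfb3 are filled in Vhl-Hif2 KO, Pfkl is filled in Vhl-Hif1 KO, and all 6 are open in Vhl-Hif1-Hif2 KO.

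The ranges of KO and control libraries did not overlap for 4 of 6 members in the Vhl-Hif2 cross (Pfkl, Pfkp, Pfkm and Pfkfb3, all higher in KO), against 35.1% of all tested genes. In the Vhl-Hif1 cross this held for 2 of 6 (Pfkl and Pfkp, higher in KO), against 23.8%. In the Vhl-Hif1-Hif2 cross it held for 3 of 6, against 15.3%, with Pfkl and Pfkp lower in KO and Pfkfb3 higher in KO.

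The order of the 6 groups by mean level differed between the genes. For Pfkl it was Vhl-Hif2 KO, then Vhl-Hif1 KO, Vhl-Hif1-Hif2 control, Vhl-Hif1-Hif2 KO, Vhl-Hif2 control and Vhl-Hif1 control. Vhl-Hif2 KO was clear of all others, Vhl-Hif1 KO overlapped Vhl-Hif1-Hif2 control, both lay above Vhl-Hif1-Hif2 KO, and the lowest 3 groups overlapped their neighbours. For Pfkp, Vhl-Hif2 KO and then Vhl-Hif1 KO each stood clear of the group below, the next 2 groups (Vhl-Hif1 control and Vhl-Hif2 control) overlapped, and Vhl-Hif1-Hif2 control and Vhl-Hif1-Hif2 KO followed, each clear of its neighbour. For Pfkfb3 the top group Vhl-Hif2 KO and the bottom group Vhl-Hif1-Hif2 control were clear of the 4 groups between, which overlapped one another in order. For Pfkm only Vhl-Hif2 KO was clear, and for Pfkfb2 and Pfkfb4 every group overlapped the next. Without the Vhl-Hif2 KO libraries, the highest of 15 libraries was 2.26 times the lowest for Pfkl, 1.41 times for Pfkp and 1.45 times for Pfkfb3.

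The size of the response was then compared between crosses by testing the difference of the log2 fold changes in the same edgeR fit. The Vhl-Hif2 effect was larger than the Vhl-Hif1 effect for Pfkl by 2.42 ± 0.19 (edgeR adjusted p = 7.21e-07), for Pfkfb3 by 1.32 ± 0.12 (edgeR adjusted p = 2.65e-06) and for Pfkp by 0.999 ± 0.10 (edgeR adjusted p = 6.12e-06). These were 3 of 6 members, all higher, where 2.42% of all tested genes were called and 1.61% were called higher. The difference was not called for Pfkm (0.74, edgeR adjusted p = 0.609), Pfkfb2 (-0.25, edgeR adjusted p = 0.759) or Pfkfb4 (-0.08, edgeR adjusted p = 0.972). The same 3 genes, Pfkl, Pfkp and Pfkfb3, had a larger effect in Vhl-Hif2 KO than in Vhl-Hif1-Hif2 KO, where 8% of all tested genes were called and 4.89% were called higher. The differences there were 3.66 ± 0.20 for Pfkl (edgeR adjusted p = 2.63e-09), 1.23 ± 0.10 for Pfkp (edgeR adjusted p = 2.79e-07) and 1.12 ± 0.12 for Pfkfb3 (edgeR adjusted p = 7.26e-06). Between Vhl-Hif1 KO and Vhl-Hif1-Hif2 KO, Pfkl alone differed (1.24 ± 0.19, edgeR adjusted p = 0.0013), 1 of 6 members where 2.02% of all tested genes were called and 1.5% were called higher. Pfkp (0.23, edgeR adjusted p = 0.261) and Pfkfb3 (-0.19, edgeR adjusted p = 0.378) did not pass that test. These 3 contrasts share the libraries of their crosses, so they do not count as separate evidence.

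The makeup of the phosphofructokinase RNA was compared per length, as CPM per kilobase of exon (GENCODE M21 on GRCm38, exon union of 6.67 kb for Pfkl, 13.4 kb for Pfkp and 3.34 kb for Pfkm). On this scale Pfkp made up most of the summed isoform RNA in every group but Vhl-Hif2 KO, where Pfkl did. That majority of Pfkl depends on the lengths used. Before division by length, mean CPM in Vhl-Hif2 KO was higher for Pfkp (521) than for Pfkl (473). The Pfkl share was 64.2 ± 0.502% in Vhl-Hif2 KO and 28.2 ± 5.15% in Vhl-Hif2 control, and the Pfkp share was 35.2 ± 0.623% in Vhl-Hif2 KO and 69.9 ± 5.29% in Vhl-Hif2 control. In the Vhl-Hif1 cross the Pfkl share was 36.9 ± 1.45% in KO and 25.6 ± 0.812% in control libraries. In both crosses the two-sided exact permutation p was 0.1, the smallest that 3 libraries against 3 allow. The Pfkl share was 36.9 ± 1.58% in Vhl-Hif1-Hif2 KO and 40.9 ± 4.89% in Vhl-Hif1-Hif2 control (exact permutation p = 0.2). Pfkm stayed at or under 2.32% of the sum in every KO library and 2.30% in every control library. With the longest transcript as the length, the Pfkl share was 67.6% in Vhl-Hif2 KO and 31.4% in Vhl-Hif2 control. Pfkp was the longer by that measure too, at 8681 bases against 3730 for Pfkl. This alternative therefore does not show that the majority holds under other lengths.

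The log2 ratio of Pfkp to Pfkl per length was -0.87 in Vhl-Hif2 KO and 1.32 in Vhl-Hif2 control, a difference of -2.19. That difference does not depend on the lengths used, but the sign of the ratio in a group does. The ratio was 0.75 in Vhl-Hif1 KO and 1.5 in Vhl-Hif1 control, and 0.73 in Vhl-Hif1-Hif2 KO and 0.49 in Vhl-Hif1-Hif2 control. The summed isoform RNA was 110.5 ± 3.74 CPM per kilobase in Vhl-Hif2 KO and 24.7 ± 0.610 in Vhl-Hif2 control, which is 4.47-fold. Per length, Pfkl accounted for 74.5% of the difference in that sum, Pfkp for 25.2% and Pfkm for 0.298%. These parts, and the one given next for the Vhl-Hif1 cross, also depend on the lengths used. The sum was 32.6 ± 0.577 CPM per kilobase in Vhl-Hif1 KO and 24.7 ± 2.01 in Vhl-Hif1 control (1.322-fold), with Pfkl at 71.8% of the difference. It was 23.8 ± 0.545 CPM per kilobase in Vhl-Hif1-Hif2 KO and 26.5 ± 1.82 in Vhl-Hif1-Hif2 control. The exact permutation p for the sum was 0.1 in each cross.

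**Figure D3:**
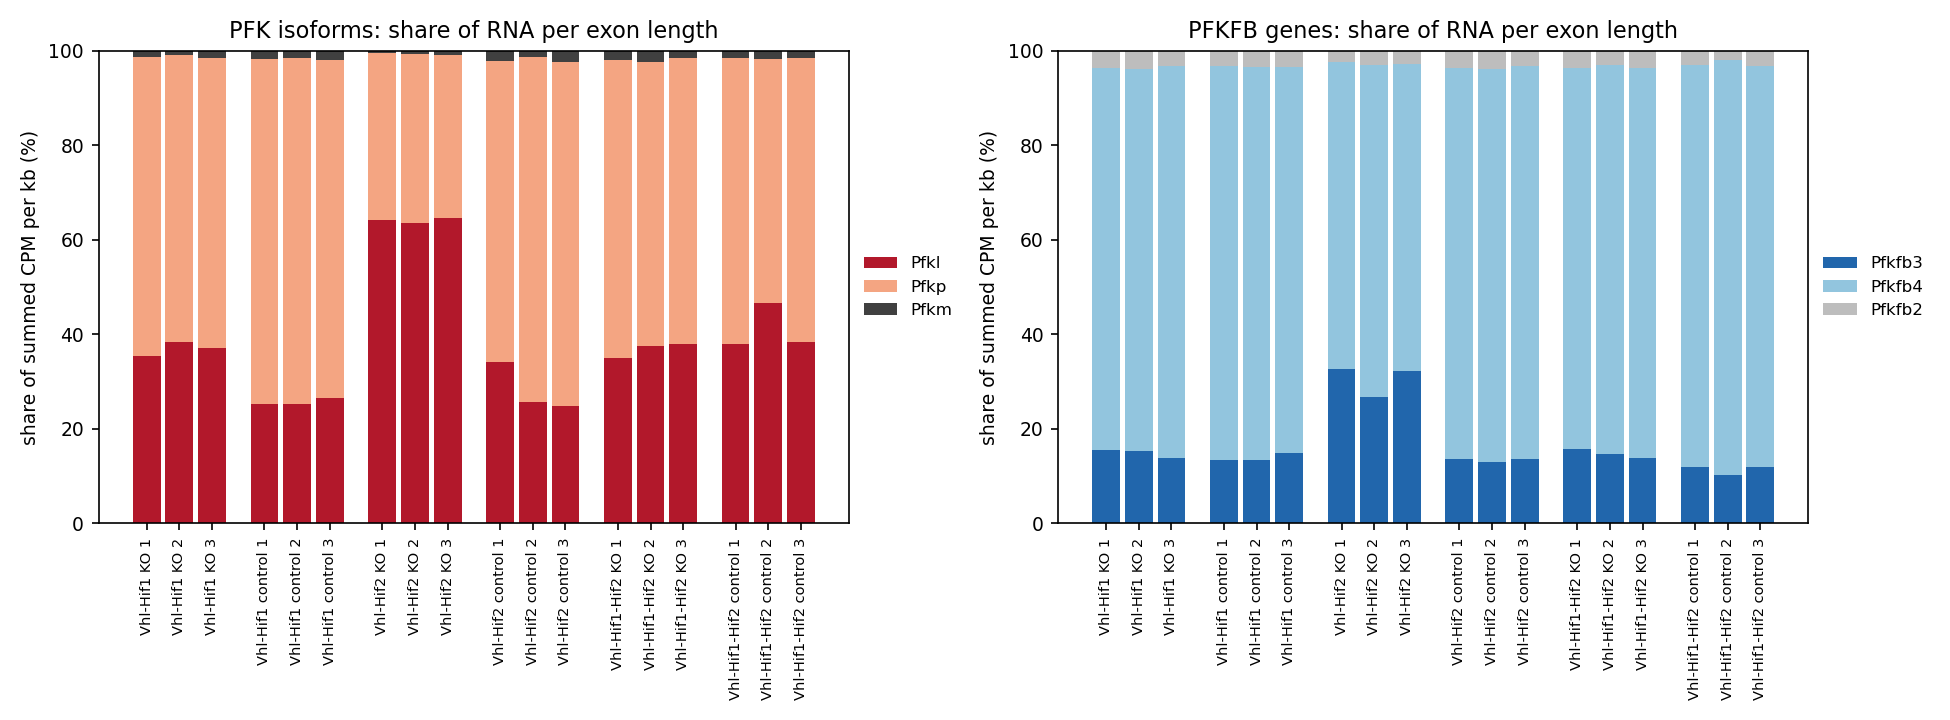
Share (percent of the summed CPM per kilobase) of each phosphofructokinase isoform and of each PFKFB regulator in every library, as stacked bars from 0 to 100. Per length, Pfkl is the larger part in the 3 Vhl-Hif2 KO libraries and Pfkp in all the others, and Pfkfb4 is the largest regulator part throughout. Which isoform is larger in Vhl-Hif2 KO depends on the lengths used.

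Among the regulators, Pfkfb4 held the largest part of the RNA per length in all groups. Its share was 66.8 ± 2.97% in Vhl-Hif2 KO and 83.0 ± 0.323% in Vhl-Hif2 control. Pfkfb3 made up 30.5 ± 3.20% in Vhl-Hif2 KO and 13.4 ± 0.342% in Vhl-Hif2 control. The level of Pfkfb4 itself was not called different in that cross, and that of Pfkfb3 rose. The ratio of Pfkfb4 to Pfkfb3 per length was 2.21 ± 0.350 in Vhl-Hif2 KO and 6.19 ± 0.173 in Vhl-Hif2 control. It was 5.52 in Vhl-Hif1 KO and 5.93 in Vhl-Hif1 control, where the ranges overlapped. In the cross of all 3 genes it was 5.57 ± 0.398 in KO and 7.56 ± 0.808 in control libraries. The summed regulator RNA was 63.1 ± 0.797 CPM per kilobase in Vhl-Hif2 KO and 53.4 ± 0.776 in Vhl-Hif2 control.

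The 17 other genes of glycolysis listed, from glucose uptake to lactate export, give the setting for the phosphofructokinase step. In Vhl-Hif2 KO 14 of 17 rose and 1 fell, with a median log2 fold change of 2.02, where 7.68% of all tested genes were called higher. In Vhl-Hif1 KO 7 of 17 rose and 0 fell, with a median of 0.50, where 2.25% of all tested genes were called higher. The count of 7 in Vhl-Hif1 KO became 3 (Slc2a1, Tpi1 and Pgam1) without Vhl-Hif1 KO 3 and also without Vhl-Hif1 control 2, where the median was 0.33. It became 9 without the 3 control libraries that stood apart. In Vhl-Hif1-Hif2 KO 0 of 17 were called by edgeR, with a median of -0.25, which was -0.11 without Vhl-Hif1-Hif2 control 2. Slc2a1, the main glucose transporter, rose by 3.87 ± 0.20 in Vhl-Hif2 KO (edgeR adjusted p = 3.88e-10) and by 1.72 ± 0.19 in Vhl-Hif1 KO (edgeR adjusted p = 1.28e-05) on the log2 scale. In the same Vhl-Hif2 KO test Pgk1, the phosphoglycerate kinase, rose by 3.45 and Tpi1, the triose phosphate isomerase, by 3.28, so that Pfkl was the third highest of the 23 genes formed by the members and this list. In Vhl-Hif1 KO Pfkl came next after Slc2a1, Slc2a3 (1.29, edgeR adjusted p = 0.224) and Tpi1 (1.09). The enzymes next to phosphofructokinase moved as follows. Gpi1, which makes its substrate, rose by 1.89 ± 0.09 in Vhl-Hif2 KO (edgeR adjusted p = 2.3e-10) and was not called in Vhl-Hif1 KO (0.14, edgeR adjusted p = 0.607). Aldoa, which splits its product, rose by 1.39 in Vhl-Hif2 KO (edgeR adjusted p = 6.45e-07) and by 0.54 in Vhl-Hif1 KO (edgeR adjusted p = 0.0202), a call that ended without KO 2 or 3 or control 1 or 2 of that cross. Hk2, an inducible hexokinase, rose by 2.02 in Vhl-Hif2 KO (edgeR adjusted p = 1.02e-09) and was not called in Vhl-Hif1 KO (0.33, edgeR adjusted p = 0.129). The gene that fell in Vhl-Hif2 KO was Eno2, the neuronal enolase, which was at 0.114 ± 0.0637 CPM in Vhl-Hif2 KO and 0.499 ± 0.218 CPM in Vhl-Hif2 control (-2.07, edgeR adjusted p = 0.0209), a call that ended without KO 1 or 3 or control 1 or 2 of that cross. Slc2a3 (1.29, edgeR adjusted p = 0.0845) and Hk3 (0.03, edgeR adjusted p = 0.918) were not called there, and Slc2a3 was called higher without Vhl-Hif2 KO 2.

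**Figure D4:**
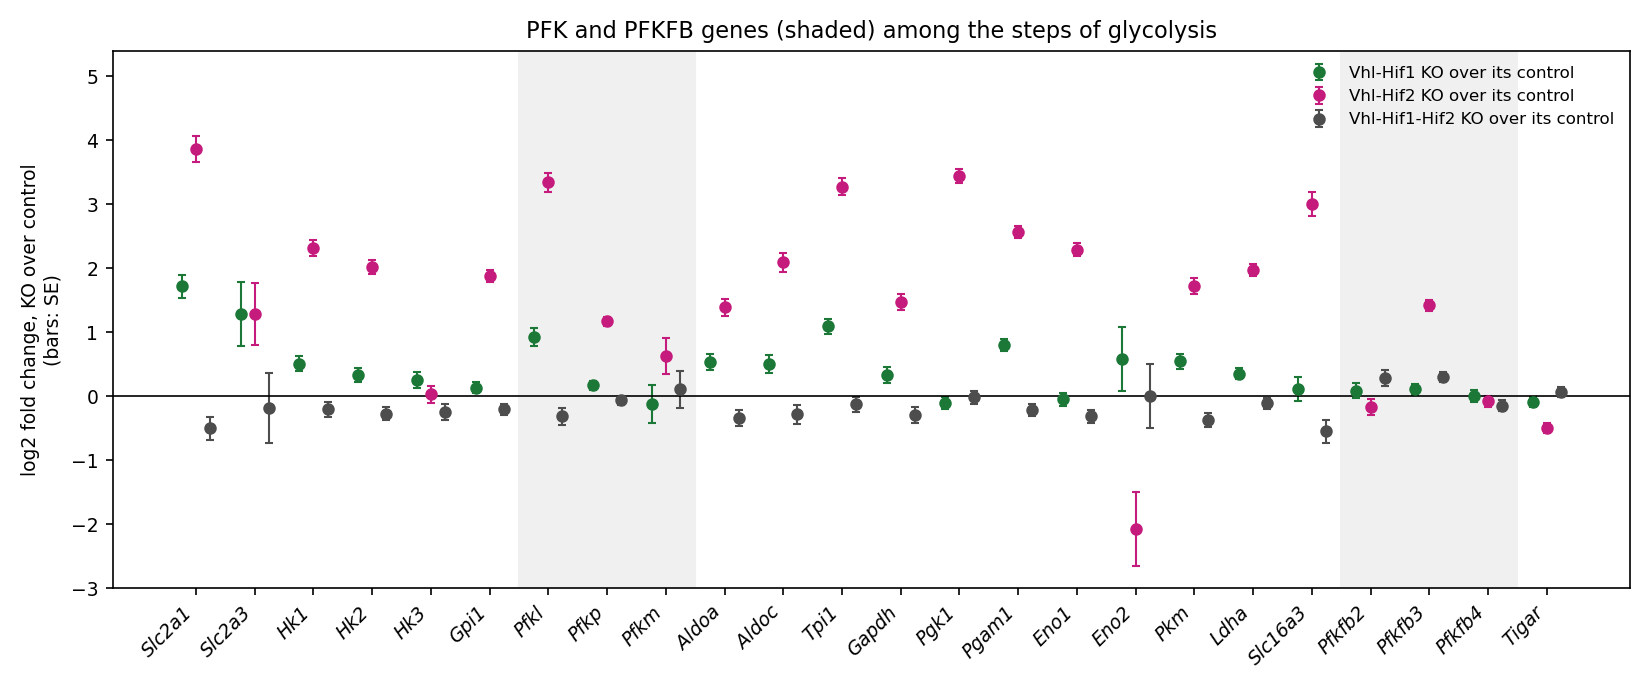
Log2 fold change ± SE, KO over control, of the glycolysis genes in pathway order with the phosphofructokinase and PFKFB genes shaded, and of Tigar, in the 3 crosses. Slc2a1 (3.87), Pgk1 (3.45) and Pfkl (3.34) are the highest points in Vhl-Hif2 KO. In Vhl-Hif1-Hif2 KO the 17 other glycolysis genes run from -0.54 to 0.0074 with a median of -0.25. The 6 members run from -0.31 (Pfkl) to 0.30 (Pfkfb3) there, and none of these genes was called.

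A list of 8 genes held enzymes that oppose or bypass the step, together with the family gene Pfkfb1, and 6 of them, Pfkfb1 included, were tested. In Vhl-Hif2 KO 2 of these 6 fell, where 14.7% of all tested genes were called in either direction. The medians over the 6 and over all tested genes were -0.03 and 0.0032. The median over the 6 or 7 tested ran from -0.08 to 0.10 when a library of that cross was left out. Tigar, a phosphatase that removes the activator made by the PFKFB enzymes, was at 33.2 ± 1.24 CPM in Vhl-Hif2 KO and 46.6 ± 2.51 CPM in Vhl-Hif2 control (log2 fold change -0.49 ± 0.08, edgeR adjusted p = 0.000242). G6pdx, the entry enzyme of the pentose phosphate pathway, was at 166 ± 6.35 CPM in Vhl-Hif2 KO and 198 ± 18.7 CPM in Vhl-Hif2 control (-0.26 ± 0.08, edgeR adjusted p = 0.0405). The G6pdx call ended without KO 1 or 3 or control 1 or 3 of that cross, which left Tigar alone. None of the 6 was called in Vhl-Hif1 KO or Vhl-Hif1-Hif2 KO. The Tigar effect was lower in Vhl-Hif2 KO than in Vhl-Hif1-Hif2 KO by a log2 difference of -0.55 (edgeR adjusted p = 0.00345), and its difference from the Vhl-Hif1 effect was not called (-0.40, edgeR adjusted p = 0.0643). Fbp1 and Fbp2, the phosphatases that reverse the step in gluconeogenesis, did not pass the filter on low counts. Of 11 genes for kinases and ubiquitin ligases that act on these proteins, 10 were tested and 0 were called by edgeR in any cross, with log2 differences of -0.22 to 0.16 in Vhl-Hif2 KO.

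Likeness of pattern was measured as Pearson's r of log2(CPM + 0.5) over the 18 libraries, naming the 3 closest genes with a mean of at least 1 CPM. The libraries share groups, so r is mainly a comparison of group levels and is given as a description. Pfkl was most like Ldha, the lactate dehydrogenase subunit (r = 0.991), Pgam1, the phosphoglycerate mutase (0.987), and Gys1, the glycogen synthase (0.984). Over the 15 libraries without Vhl-Hif2 KO these values were 0.95, 0.863 and 0.807. Pfkp was most like Nid2 (0.975), Nrn1 (0.974) and Vmn2r26 (0.965), and without Vhl-Hif2 KO these were 0.863, 0.768 and 0.647. Pfkfb3 was most like Kdm2a (0.982), Nrn1 (0.969) and Epm2a (0.969), and without Vhl-Hif2 KO these were 0.715, 0.616 and 0.577. The closest gene to Pfkfb4 was Dcakd (0.93 over 18 and 0.93 over 15 libraries), and that to Pfkfb2 was Zfp871 (0.912 over 18 and 0.919 over 15). Vhl-Hif1-Hif2 control 2 had the highest Pfkfb4 (255 CPM) and the lowest Pfkfb2 (8.36 CPM) of all libraries. It is in both sets of libraries, so these r values can rest largely on that library. Pfkm reached 0.838, with Papss1, and 0.582 over the 15 libraries.

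**Figure D5:**
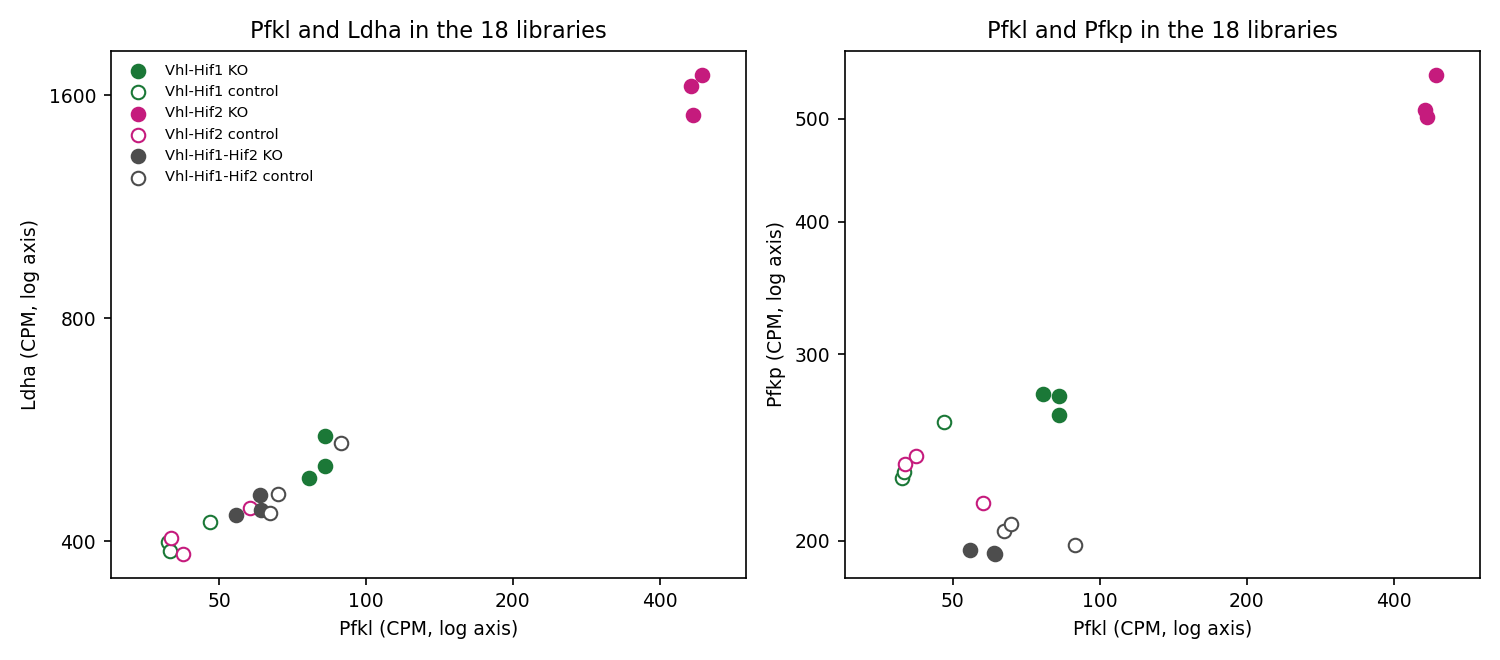
Pfkl level against Ldha level and against Pfkp level (CPM, log axes) in the 18 libraries, coloured by group. The 3 Vhl-Hif2 KO libraries stand apart at the upper right of both plots, and among the other 15 libraries r of Pfkl is 0.95 with Ldha and 0.0323 with Pfkp. Ldha was picked for its high r with Pfkl over the 18 libraries, which include these 15, and Pfkp was not. The 2 values are therefore not a like comparison.

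The control groups were compared with one another, since each knockout has its own. Pfkl differed among the 3 control groups, with the highest mean in Vhl-Hif1-Hif2 control at 72.7 ± 13.9 CPM and a log2 range of 0.78 (edgeR adjusted p = 0.00493), 1 of 6 members called where 4.49% of all tested genes were called. This call ended when only the 9 control libraries were fitted (edgeR adjusted p = 0.115). Pfkp (0.24, edgeR adjusted p = 0.0905), Pfkfb3 (0.32, edgeR adjusted p = 0.0548) and Pfkfb2 (0.46, edgeR adjusted p = 0.0726) were not called.

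Markers of other cells were low beside those of macrophages. The summed level of 11 alveolar macrophage markers lay between 23600 and 41000 CPM in all libraries, with none near 0. Their sum was higher in KO than in control libraries without overlap in every cross. It was 35200 to 37800 CPM in Vhl-Hif2 KO and 26300 to 30200 CPM in Vhl-Hif2 control. For the marker counts that follow, 14.7% of all tested genes were called in Vhl-Hif2 KO. The share was 3.67% in Vhl-Hif1 KO and 0.0388% in Vhl-Hif1-Hif2 KO. Of the 11 markers, 4 were called higher and 2 lower in Vhl-Hif2 KO. In Vhl-Hif1 KO 1 was called higher and 2 lower, and in Vhl-Hif1-Hif2 KO 1, Itgax, was called higher and 0 lower. Itgax is the gene of CD11c, which both the Cre and the beads rely on. Its log2 fold change was 0.66 in Vhl-Hif1-Hif2 KO (edgeR adjusted p = 4.34e-05). It was also called higher in Vhl-Hif2 KO (0.45, edgeR adjusted p = 7.22e-05), and the cause was not tested. All 4 T and NK cell markers averaged under 0.1 CPM over the 18 libraries. The 6 dendritic cell markers summed to 7.84 to 10.3 CPM in Vhl-Hif2 KO and 19.1 to 46.6 CPM in Vhl-Hif2 control, and 4 of them were called lower. The 4 monocyte markers summed to 20.1 to 21.2 CPM in Vhl-Hif2 KO and 8.5 to 15.3 CPM in Vhl-Hif2 control, with Ly6c2 under 0.1 CPM, and 1 of them, Ccr2, was called higher. They summed to 20.1 to 25.9 CPM in Vhl-Hif1 KO and 12.5 to 15.8 CPM in Vhl-Hif1 control. There F13a1 was called higher, at 10.1 ± 4.27 CPM in Vhl-Hif1 KO and 0.246 ± 0.389 CPM in Vhl-Hif1 control (edgeR adjusted p = 0.00017), and Ccr2 was not called, at 11.9 ± 1.16 CPM in Vhl-Hif1 KO and 12.8 ± 1.09 CPM in Vhl-Hif1 control (edgeR adjusted p = 0.913). The 6 neutrophil markers summed to 74 to 82.4 CPM in Vhl-Hif1 KO and 149 to 165 CPM in Vhl-Hif1 control, with 3 of 6 called lower and 1, S100a8, called higher. The neutrophil marker S100a8 was also called higher in Vhl-Hif2 KO, where 2 of 6 were called lower. In the Vhl-Hif1 cross the 4 epithelial markers summed to 26.1 to 45.5 CPM in Vhl-Hif1 KO and 65.6 to 73.5 CPM in Vhl-Hif1 control. These sums were higher in the other crosses, at 293 to 348 CPM in Vhl-Hif2 KO and 256 to 401 CPM in Vhl-Hif2 control. They were 165 to 186 CPM in Vhl-Hif1-Hif2 KO and 207 to 247 CPM in Vhl-Hif1-Hif2 control. Epcam was called lower in Vhl-Hif1 KO, and no epithelial marker was called in the other knockouts. Epcam also differed among the 3 control groups (log2 range 2.39, edgeR adjusted p = 8.76e-07). The part of these cells in the Pfkl, Pfkp and Pfkfb3 differences was not tested. In such bulk samples fewer cells of a type and less RNA per cell cannot be told apart.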

How the data were processed

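RNA sequencing of polyA RNA from alveolar macrophages gave 18 libraries in 6 groups, made with a directional kit per the labels' protocols. The authors deposited 1 table with a value per gene and library. From the values, of which 89.3% were whole, and from the differing column totals, its unit was taken to be estimated (expected) counts of reads, which can hold decimals. Of the values of the 6 genes 76.9% were whole. Per the submitters' processing notes, FastQC, cutadapt and STAR were used with GRCm38. Not given in the sources used here are their versions, the counting tool, its strand setting and the annotation release, so how reads of overlapping genes were divided is unknown.

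The deposited expected counts were rounded, and genes were filtered with filterByExpr (min.count 10, min.total.count 15), which left 12900 of 32789 genes. Library sizes were scaled with TMM, and CPM was computed from them. EdgeR 4.0.16 (glmQLFit with robust estimation, glmQLFTest) in R 4.3.3 was fitted to all 18 libraries with 1 coefficient per group and no covariates. P-values were adjusted over all 12900 genes by Benjamini-Hochberg. The SE is the size of the log2 fold change divided by the square root of F and is approximate. Isoform shares used CPM per kilobase of exon union and a two-sided exact permutation test. Promoter windows were read from RefSeq on GRCm38.p6, and the genes overlapping each member from GENCODE M21. Depth was 19200000 to 34000000 counts per library (rounded). No molecular identifiers are described, so PCR copies cannot be told apart from separate molecules. Errors cover counting and the spread between libraries, and PCR noise is not set apart within them. Alternatives were DESeq2 1.42.0, RLE and upper-quartile scaling, no robust estimation, no filter on low counts, a replicate block, a fit of the compared libraries alone, another gene length and each library left out in turn. Counts left unrounded, likeness without the Vhl-Hif2 KO libraries, and the 3 control libraries that stood apart in other genes left out together, were added after seeing the data.

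The members and gene lists were chosen with earlier results of these data known. Named genes were the 6 members, the targeted genes, the 3 genes most like each member and members of the lists.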

Additional observations from a re-analysis of the deposited data

Results flagged for a closer look

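A difference between crosses in the size of the KO effect picked out 3 of the 6 genes, each by a test of the difference itself. The Vhl-Hif2 effect minus the Vhl-Hif1 effect was 2.42 for Pfkl, 0.999 for Pfkp and 1.32 for Pfkfb3 on the log2 scale. The Vhl-Hif2 effect minus the Vhl-Hif1-Hif2 effect was 3.66 for Pfkl, 1.23 for Pfkp and 1.12 for Pfkfb3. The Vhl-Hif1 effect minus the Vhl-Hif1-Hif2 effect was 1.24, for Pfkl alone. These differences share the libraries of the crosses, and in each the larger effect was the first named. Pfkm, Pfkfb2 and Pfkfb4 did not pass any of these tests.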

How the results depend on the processing

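Over the 3 knockout comparisons and the 3 differences between them, 648 values of the 6 genes were recomputed under the alternatives named for the processing. Of these 646 kept their side of the threshold, 0 calls ended, 2 calls were gained and 0 called values turned direction, while 8 values with no call in either fit changed sign. Of the gained calls, 1 was Pfkp in Vhl-Hif1 KO without the 3 control libraries that stood apart (0.23, edgeR adjusted p = 0.0268, where its adjusted p ran from 0.0268 to 0.583 over the alternatives), so that 2 members were called there, and 1 was Pfkfb2 in the Vhl-Hif2 effect minus the Vhl-Hif1-Hif2 effect without Vhl-Hif1-Hif2 control 3 (-0.55, edgeR adjusted p = 0.0491). Over the alternatives the adjusted p for Pfkl was 8.24e-09 to 0.00479 in Vhl-Hif1 KO and at most 2.25e-06 in Vhl-Hif2 KO, where it was at most 1.44e-05 for Pfkp and 1.25e-05 for Pfkfb3. Among the 3 control groups 1 member was called by edgeR, 4 by DESeq2, 0 with only the libraries compared in the fit, and 1 to 2 when each library was left out in turn, and the cause was not tested. Counts of all genes called moved more: 5 in Vhl-Hif1-Hif2 KO became 11 with DESeq2, 3 without the 3 control libraries that stood apart, 2 with only the libraries compared and 3 to 4 with a library left out. Those in Vhl-Hif1 KO (473) and Vhl-Hif2 KO (1894) became 281 to 364 and 1245 to 1629 with a library left out, and 473 became 753 without the 3 control libraries that stood apart. For the Vhl-Hif2 effect minus the Vhl-Hif1 effect 312 became 492 with DESeq2. For the Vhl-Hif2 effect minus the Vhl-Hif1-Hif2 effect 1032 became 680 with only the libraries compared and 680 to 1407 with a library left out. For the Vhl-Hif1 effect minus the Vhl-Hif1-Hif2 effect 261 became 474 with DESeq2 and 163 to 419 with a library left out. Among the controls 579 became 1333 with DESeq2, 106 with only the libraries compared and 287 to 844 with a library left out. The differences in isoform shares kept their direction under every setting, and the Pfkp share difference in Vhl-Hif1-Hif2 KO ran from 0.868 to 5.26 percentage points.

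Replicate numbers did not pair the libraries: of 9 pairs 2 had correlated deviations over 0.1 (range -0.27 to 0.225), and 3 of 9 KO libraries correlated best with their own number. With the replicate block the Pfkl log2 fold change was 0.93 in Vhl-Hif1 KO (edgeR adjusted p = 0.00159) and 3.36 in Vhl-Hif2 KO (edgeR adjusted p = 1.48e-07), no call of a member changed, and the counts of all genes for the differences from the Vhl-Hif1 effect were 204 (Vhl-Hif2) and 162 (Vhl-Hif1-Hif2). Depth limits Pfkm most, at 23 to 103 counts per library.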

Other observations

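Pairs of the 6 genes differed in how alike they were once the Vhl-Hif2 KO libraries were set aside. Pearson's r of log2(CPM + 0.5) between Pfkl and Pfkp was 0.9 over 18 libraries and 0.0323 over the 15 others, and between Pfkl and Pfkfb3 it was 0.914 and -0.062. Between Pfkp and Pfkfb3 it was 0.954 over 18 libraries and 0.638 over 15. Pfkfb2, by contrast, had 0.106 with Pfkfb3 over 18 libraries and 0.688 over 15, and 0.17 and 0.6 with Pfkp. These values are over libraries that share groups and are a description with no test.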
